A study of Drosophila melanogaster with 5 samples.

Results

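The ATAC-seq peak lists of esg+ progenitor cells and of enterocytes (ECs) from the adult Drosophila midgut were compared, as the step of the absorptive lineage. Peaks of the 2 lists that overlapped or touched were merged, which gave 12340 regions on chromosome 4, on X and on both arms of chromosomes 2 and 3. Of these, 2467 held a progenitor peak only, 3095 held an EC peak only and 6778 held a peak of both lists. Each peak was ranked by the authors' fold enrichment over background within its own list, as a percentile from the weakest (near 0) to the strongest (100). Among the shared regions, 80 ranked at least 40 percentile points higher in progenitors and 132 at least 40 points higher in ECs. Merging the lists of all 5 populations in the series would give 15196 regions, but the other 3 lists served here only to ask where else a region had a peak.

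Progenitor cells were GFP+ cells of esg-GAL4, tubP-GAL80ts, UAS-GFP/+ flies, and ECs were GFP+ cells of Myo1A-GAL4, UAS-GFP/+; tubP-GAL80ts/+ flies. Both genotypes carried the temperature-sensitive GAL80 repressor and the GFP reporter, and neither carried an RNAi transgene. Crosses were raised at 18 °C, and female flies aged 5 to 7 days were then kept at 29 °C for 7 days. About 40000 living GFP+ cells were sorted per sample from 100 to 150 pooled guts. The esg driver labels intestinal stem cells together with their committed daughters, so stem cells and enteroblasts are not separated in the progenitor library. The study observed an enteroblast marker in several Myo1A-labelled cells with smaller nuclei. It proposes that the Myo1A driver is also active in enteroblasts, so the EC library may hold some of them. The peak names of the progenitor list carry the mark "5w", which the sources used here do not explain, so a difference in age between the libraries cannot be told apart from the difference in cell type. There was 1 library of each population, no test between them was possible, and the 95% Wilson intervals given with shares cover counting error only.

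In the midgut, an intestinal stem cell divides to renew itself and to give rise to an enteroblast. Notch signalling received from the Delta ligand commits the enteroblast to the absorptive fate, and it grows by endoreplication into a large polyploid EC with an apical brush border. ATAC-seq reads accessible DNA by letting the transposase Tn5 cut and tag it, most of all at promoters and enhancers. Peaks are places where tagged fragments exceed the caller's background, and a library without a peak at a place may still be accessible there.

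The lists differed in strength as well as in content. The progenitor list held 9311 peaks on the 6 arms with a median fold of 4.94 and a median of 103 fragments at the summit, as derived from the authors' fold and -log10 p. The EC list held 10048 peaks with a median fold of 2.68 and a median of 52 fragments. A -log10 q of at least 10 was reached by 82.5% of the progenitor peaks and by 45.3% of the EC peaks. At the lowest background of each library, a peak needed at least 24 fragments in progenitors and at least 27 in ECs. The number of reads is unknown, and folds were therefore compared only as ranks within a list.

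The following stretches of 101 bases around the strongest summit of a region, on the plus strand of BDGP6 (release 6) and read from the RefSeq genome, show what the classes look like in sequence. They were chosen as leading regions of each class, with the cic and nub regions added because the text returns to these genes, and none touches an untranslated region. Capitals mark a match to any of the 15 motifs described further on, on either strand.
sky, progenitor only, intronic (chr2L:20891356-20891456): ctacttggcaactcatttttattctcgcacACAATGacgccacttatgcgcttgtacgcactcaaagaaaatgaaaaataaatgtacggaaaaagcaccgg
cic, progenitor only, intronic (chr3R:20282557-20282657): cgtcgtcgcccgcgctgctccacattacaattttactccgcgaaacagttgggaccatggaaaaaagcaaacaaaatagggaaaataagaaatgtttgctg
sbm, EC only, in an intron of NetA (chrX:14622538-14622638): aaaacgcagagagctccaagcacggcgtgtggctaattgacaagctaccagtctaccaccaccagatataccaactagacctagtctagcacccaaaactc
bol, EC only, intronic (chr3L:9105653-9105753): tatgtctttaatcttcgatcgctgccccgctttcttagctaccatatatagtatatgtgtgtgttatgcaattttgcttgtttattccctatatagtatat
nub, EC only, coding (chr2L:12626073-12626173): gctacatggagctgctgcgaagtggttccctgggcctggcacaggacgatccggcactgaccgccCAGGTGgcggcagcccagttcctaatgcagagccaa
CG7742, EC only, coding (chr2L:5212971-5213071): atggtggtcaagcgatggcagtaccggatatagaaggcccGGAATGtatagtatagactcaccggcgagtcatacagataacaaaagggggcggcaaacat
Svil, higher in progenitors, intronic (chr3L:2423848-2423948): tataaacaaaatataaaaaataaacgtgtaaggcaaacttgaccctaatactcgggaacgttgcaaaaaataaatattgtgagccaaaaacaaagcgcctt
Tim23, higher in ECs, intergenic (chr2L:23499208-23499308): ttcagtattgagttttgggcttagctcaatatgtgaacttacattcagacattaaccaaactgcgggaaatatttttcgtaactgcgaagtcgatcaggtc
CG1909, higher in ECs, intergenic (chr4:593015-593115): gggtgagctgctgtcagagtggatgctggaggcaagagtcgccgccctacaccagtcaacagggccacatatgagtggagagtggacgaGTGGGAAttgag
The nub and CG7742 stretches lie in coding sequence over their whole length, whereas the other 7 hold no coding base. In the nub stretch the capitals mark the E-box of Snail family repressors, in CG7742 the Scalloped motif, in sky the Sox motif and in CG1909 the Su(H) motif. The remaining stretches, of cic, sbm, bol, Svil and Tim23, hold no match in these 101 bases.

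Most strong regions were shared between progenitors and ECs. Regions with a peak in both lists made up 54.9% (54.0 to 55.8) of all regions, progenitor-only regions 20.0% (19.3 to 20.7) and EC-only regions 25.1% (24.3 to 25.9). Over the 6778 shared regions the ranks were correlated with a Spearman's rho of 0.782, given as a description across regions, which are not replicates. The ranks differed by at most 10 points in 45.2% of the shared regions and by at most 20 points in 74.0%. The regions ranked higher in progenitors were 0.648% of all regions and those ranked higher in ECs 1.07%. The shared regions nearest to the limit of 40 points differed by 40.2 points inside and 39.8 points outside it in favour of progenitors, and by -40.1 and -39.9 in favour of ECs.

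Regions with a peak in a single list were mostly weak. Their median percentile was 20.6 with 51 fragments in the progenitor list and 21.4 with 35 fragments in the EC list. In the weakest 10% of the progenitor list, 67.9% (64.8 to 70.8) of peaks had no EC peak, and in the strongest 10% a share of 0.751% (0.364 to 1.54) had none. In the EC list, the share without a progenitor peak fell from 74.5% (71.8 to 77.0) in the weakest 10% to 0.0995% (0.0176 to 0.561) in the strongest. The strong end of the 1-library regions was mainly on the progenitor side. In the upper 50% of their own list stood 278 progenitor-only and 148 EC-only regions, and above percentile 75 stood 44 and 9. A -log10 q of at least 10 was reached by 1316 progenitor-only regions (53.3%) but by 50 EC-only regions (1.62%). The lower fragment numbers and folds of the EC library moved with this difference, and their part in it was not tested.

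**Figure D1:**
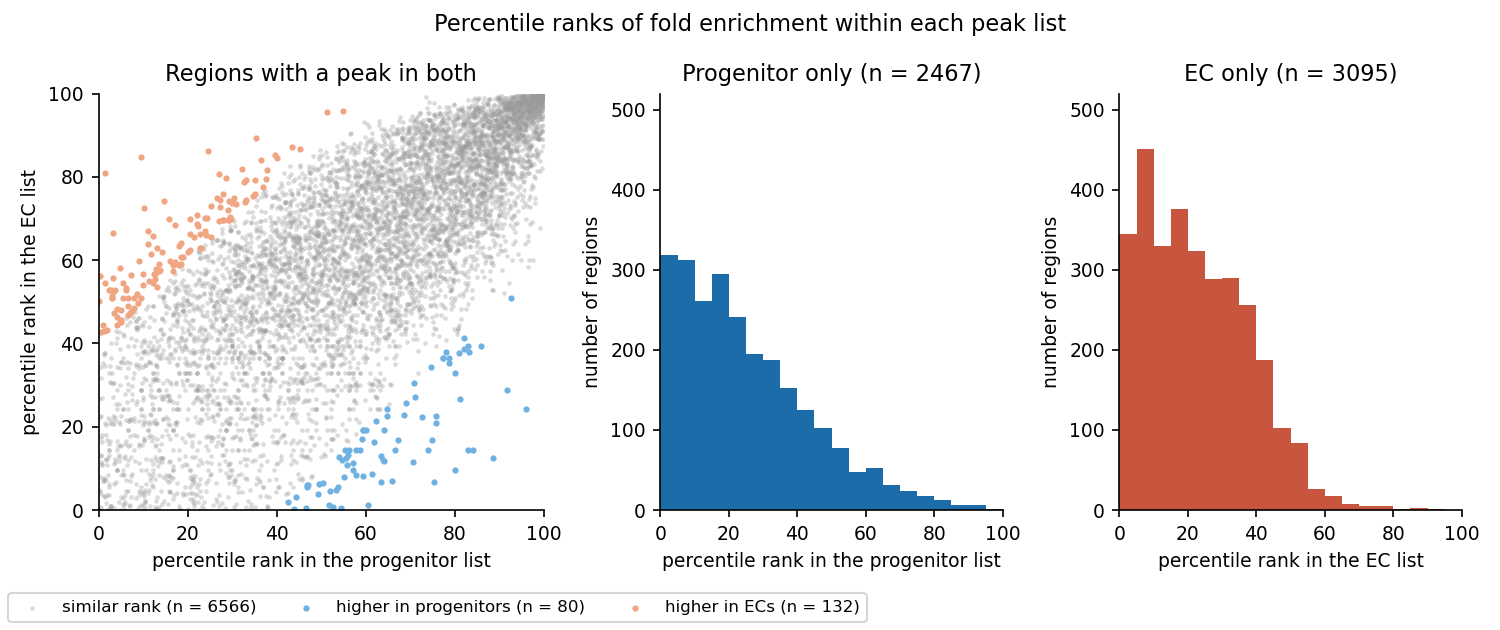
Left, percentile rank of fold enrichment in the progenitor list (x axis) and in the EC list (y axis) of each of the 6778 regions with a peak in both, coloured by class; middle and right, number of progenitor-only and EC-only regions (y axis) by percentile rank in their own list (x axis). The shared regions lie along the diagonal and fill its upper end, while the 2467 progenitor-only and 3095 EC-only regions pile up at low percentiles, with medians of 20.6 and 21.4.

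The classes differed in where they lay. Progenitor-only regions resembled shared regions in position: 51.5% (49.5 to 53.5) had their summit within 500 bp of a transcription start site (TSS) and 29.3% (27.6 to 31.2) in an intron. For shared regions of similar rank these shares were 54.4% (53.2 to 55.6) and 29.7% (28.6 to 30.8). EC-only regions were placed otherwise, with 12.0% (10.9 to 13.2) near a TSS and 64.3% (62.6 to 66.0) in exons away from a TSS. Regions ranked higher in progenitors lay near a TSS in 76.2% (65.9 to 84.2) of cases. Regions ranked higher in ECs did so in 22.0% (15.8 to 29.8), and 39.4% (31.5 to 47.9) of them were intronic and 21.2% (15.1 to 28.9) intergenic. Among the regions that differed strongly in rank, those of progenitors were thus mainly promoters and those of ECs mainly distal.

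**Figure D2:**
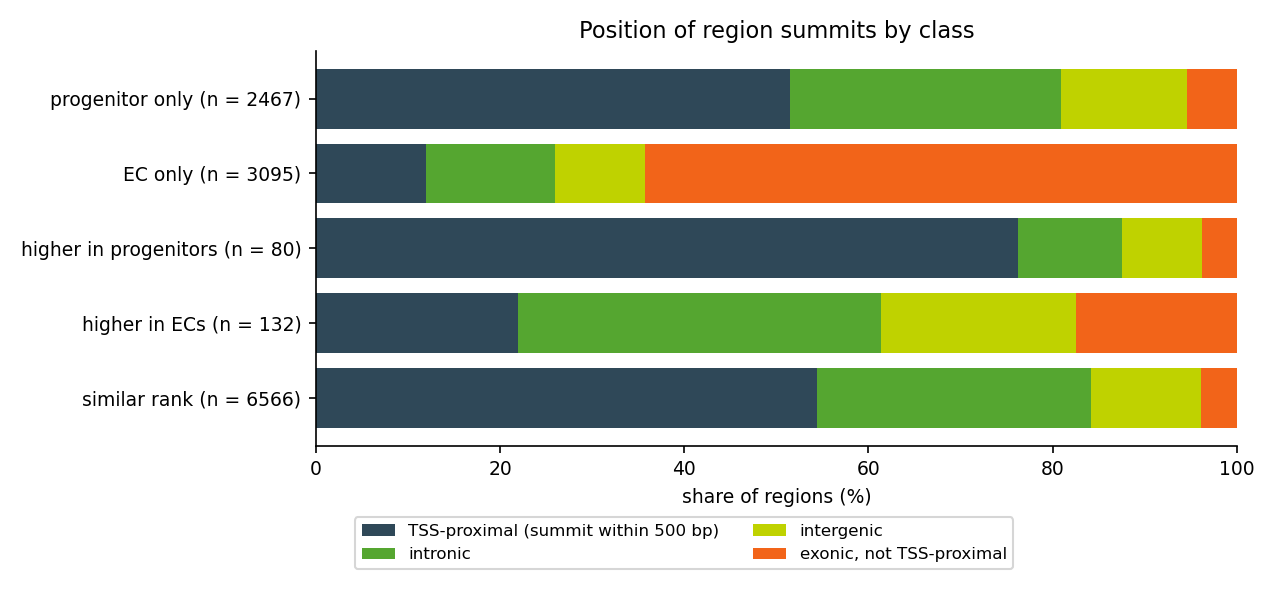
Share of regions (x axis, %) whose summit was TSS-proximal (within 500 bp), intronic, intergenic or exonic away from a TSS, for each class (y axis, with its number of regions). Exons take 64.3% of the EC-only regions and between 3.75% and 17.4% of the other classes.

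The exonic excess of the EC-only regions was in coding sequence. Their summit was in coding sequence in 2207 of 3095 cases (71.3%, 69.7 to 72.9), against 4.42% (3.68 to 5.30) of progenitor-only regions and 4.63% (4.15 to 5.17) of shared regions of similar rank. Coding sequence covers 17.1% of the 6 arms. These 2207 regions had a median GC content of 58.2% within 100 bp of the summit, where coding sequence as a whole has 53.3%. The 888 EC-only regions outside coding sequence, 7.20% of all regions, had a median GC of 49.3%, and progenitor-only regions 42.3%. The share of coding summits fell along the EC list, from 55.3% (52.3 to 58.3) of its weakest 10% to 2.09% (1.37 to 3.17) of its strongest. Within the weakest 10% of the EC list, the summit was in coding sequence for 68.9% of peaks without a progenitor peak and for 15.4% of those with one. The weakest 10% of the progenitor list had 12.9% (10.9 to 15.2) coding summits, that of EEs 21.0% (18.5 to 23.7), of Pros-depleted EEs 19.4% (16.9 to 22.2) and of Ttk-depleted ECs 12.6% (9.44 to 16.7). An EE peak overlapped 6.66% (5.69 to 7.78) of the coding EC-only regions, 19.0% (16.6 to 21.7) of the other EC-only regions and 49.2% (47.2 to 51.2) of the progenitor-only regions. What set the coding peaks of the EC list was not tested.

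**Figure D3:**
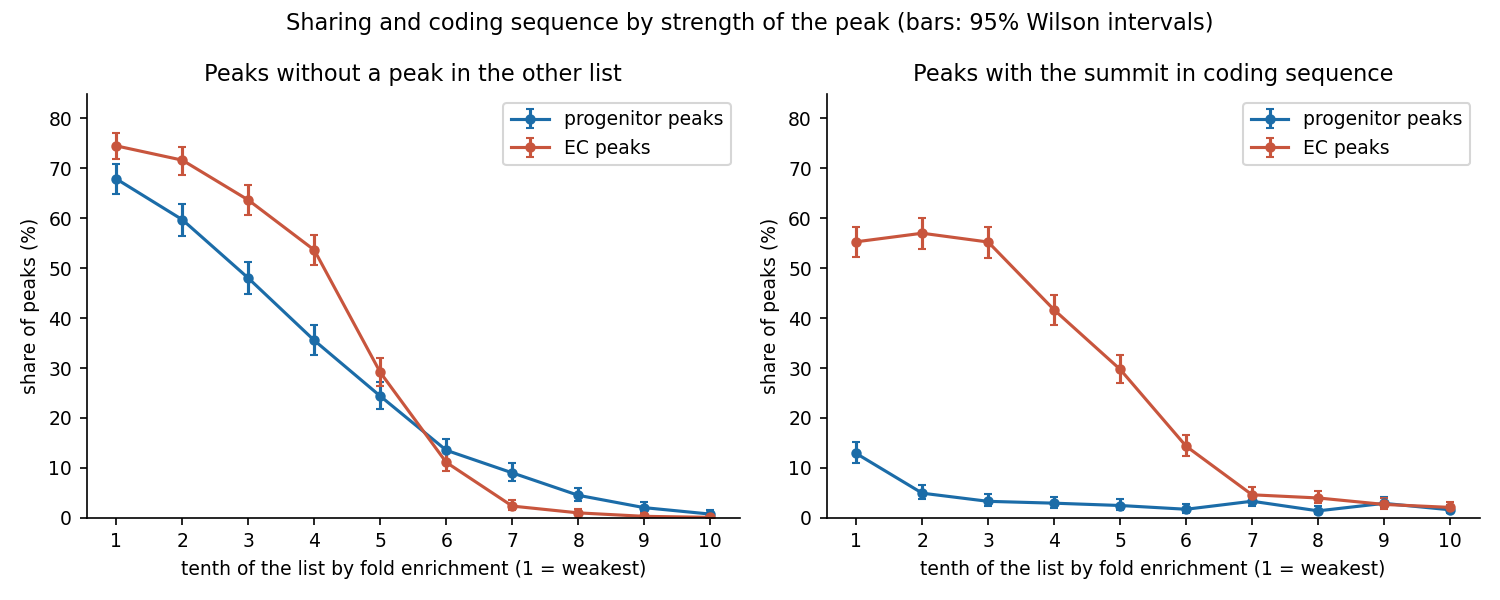
Peaks of each list divided into 10 groups by percentile of fold enrichment (x axis, 1 is the weakest); left, share of peaks without a peak in the other list (y axis, %); right, share of peaks with the summit in coding sequence (y axis, %), with 95% Wilson intervals as bars. Both lists lose their unshared peaks towards the strong end, to 0.751% in progenitors and 0.0995% in ECs, and coding summits fall from 55.3% to 2.09% in the EC list.

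When each list was cut to its 4500 strongest peaks, 871 regions had a peak above the cut in progenitors only and 839 in ECs only. Most of them had a weaker peak in the other full list. They therefore describe differences among strong peaks and not regions found in 1 library. Their positions differed in the same direction as those of the full-list classes. Near a TSS were 65.6% (62.3 to 68.6) of the regions above the cut in progenitors only and 34.8% (31.7 to 38.1) of those in ECs only. The intronic shares were 18.6% (16.2 to 21.3) and 42.1% (38.8 to 45.4). The coding share was 6.67% (5.18 to 8.57) for regions above the cut in ECs only, against 1.95% (1.22 to 3.10) for those in progenitors only.

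The strongest progenitor-only region was in an intron of sky, which encodes a GTPase-activating protein of Rab proteins that controls vesicle traffic. The region (2L:20891222-20891566) stood at percentile 96.2 with a 12.5-fold enrichment and 195 fragments, it also held an EE peak, and its stretch printed above has the Sox motif near the summit. The next regions were an intron of HnRNP-K, an RNA-binding protein (percentile 94.9, 158 fragments), and an intergenic region 6831 bp from the TSS of VhaAC45, an accessory subunit of the proton-pumping V-ATPase (93.8, 151 fragments). They were followed by regions nearest to Obp57a, an odorant-binding protein (93.3), Kank, an ankyrin-repeat protein of cell attachment sites (92.4), and CG15283 (92.0). CG41242 (90.2), CG16894 (88.7) and nrv3, a beta subunit of the Na+/K+ pump (88.0), were the nearest genes of intergenic regions at greater distance. Cyp4p2, a cytochrome P450, had the only TSS-proximal region among the first 10, at percentile 87.8 with 156 fragments. Although promoters make up 51.5% of the class, its strongest members were thus mostly introns and intergenic stretches. Among the TSS-proximal members, the strongest after Cyp4p2 were at CG40045 (87.4), CG13096 (86.1), which has the DREF motif, and Nelf-E, a subunit of the elongation factor that pauses RNA polymerase (83.7). RpL23, a ribosomal protein (80.6), and mRpS5, a mitochondrial ribosomal protein (79.2), were also in this group. These TSS-proximal genes were taken in order of rank after the values were seen.

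The strongest EC-only region lay in coding sequence of CG44666 nearest to the TSS of CG43711 (2R:20780439-20780698), at percentile 93.9 with a 6.61-fold enrichment and 104 fragments, and it also held an EE peak. The second was intergenic near CG15711 (89.1, 101 fragments), and the next was in an intron of NetA, which encodes the guidance ligand Netrin-A, nearest to the TSS of sbm, an amino acid transporter (87.4, 84 fragments, X:14621894-14622992). An intron of bol, the meiotic RNA-binding protein Boule, held the fourth (80.3, 91 fragments, 3L:9105253-9106007). The others were nearest to S-Lap7, a leucyl aminopeptidase of sperm (79.6, in an intron of Cpr50Ca), Ugt50B3, a UDP-glycosyltransferase (77.5), and Cnx99A, the chaperone calnexin (77.2). CG14659 (76.9), 5-HT2B, a serotonin receptor (75.4), and Pzl, a Piezo-like channel whose nearest region was in an intron of Myo81F (74.5, the same percentile as a region near CG40813), closed the first 10. After CG43711, the strongest coding regions were in CG7742 (67.1, 69 fragments) and CG2233 (63.4, 51 fragments). No gene of the brush border or of digestion, the known work of ECs, was nearest to any of the 10 strongest EC-only regions.

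Among shared regions that ranked far higher in progenitors, the largest difference was at an exon of raskol, a Ras GTPase-activating protein, with percentile 88.6 and 136 fragments in progenitors against 12.5 and 35 fragments in ECs. The TSS of ktub, the Tubby homologue, stood at 96.1 against 24.2, and an intron of Svil, the actin-binding protein supervillin, at 80.1 against 9.71. The promoter of sxc, the O-GlcNAc transferase, stood at 84.2 against 14.3. A region in an intron of jvl, a microtubule-associated protein, nearest to the TSS of CG7362, stood at 82.9 against 14.3. An intron of Rab9, a GTPase of endosome-to-Golgi transport, had 75.4 against 6.85, and an intergenic region nearest to Ypel had 91.8 against 28.7. The first 10 ended with TSSs of ringer, a microtubule-stabilising protein (74.0 against 14.3), CG11638 beside the splicing regulator su(w[a]) (60.6 against 1.17), and Rnp4F, an RNA-binding protein linked to splicing (70.5 against 11.6). In each of these 10 regions the EC peak was weak, with between 30 and 51 fragments.

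In the opposite direction, the largest difference was in intergenic sequence on 2L far from any protein-coding gene, with Tim23, a subunit of the mitochondrial protein import channel, as the nearest at 185680 bp. It stood at percentile 1.51 with 25 fragments in progenitors and at 80.8 with 71 in ECs. An intergenic region near CG1909 stood at 9.44 against 84.8, and an intron of Pdcd4, an inhibitor of translation, nearest to the TSS of Grip91, at 3.30 against 66.4. An exon of Arc1, whose protein forms virus-like capsids, nearest to the TSS of CG8617, stood at 10.1 against 72.4. A region near CG40472 had 24.6 against 86.1, and an intron of shot, a spectraplakin that links actin with microtubules, 14.7 against 74.1. The list went on with an intergenic region nearest to DIP1 (11.0 against 67.1), coding sequence of Hsc70-3, the chaperone BiP of the endoplasmic reticulum (0.269 against 56.2), and an intron of CG32369 (15.8 against 70.0). The tenth was the TSS of pes, a scavenger receptor of the CD36 family, at 35.3 against 89.4. These regions were peaks of both lists with at least 25 fragments in the progenitor library.

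Single genes could hold several such regions. Of 13945 protein-coding genes, 31.0% had at least 1 progenitor-only region within the gene and 3 kb to each side, and 30% had at least 1 EC-only region. The most progenitor-only regions, 6 per gene, lay at CG33181, at fru, a transcription factor known for sex-specific behaviour, and at spir, an actin nucleator, and 5 lay at Ac13E, an adenylyl cyclase, and at CG46339. The most EC-only regions, 9, lay at kirre, an adhesion molecule of muscle founder cells, which spans 394149 bp, and 6 of the 9 were in coding sequence of kirre or of another gene in the same window. Mur2B, a mucin-related gene, had 8 of which 1 was coding, and Ptp61F, a tyrosine phosphatase that restrains JAK, had 8 of which 3 were coding. Svil had 8 of which 7 were coding, and sick, a regulator of actin, had 8 of which 4 were coding. These 5 genes span from 121572 bp (Svil) to 394149 bp (kirre), and longer genes offer more room for a region.

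Marker genes did not separate the lists. All 7 progenitor markers and all 7 EC markers had at least 1 peak in both libraries within 3 kb. The share of all genes with such a peak is not given here, so this count is not read as a trait of markers. The region at the TSS of esg, which encodes the Snail family repressor that holds cells in the progenitor state, stood at percentile 90.3 with 402 fragments in progenitors and at 99.7 with 272 in ECs. The TSS of klu, a zinc finger gene of enteroblasts, stood at 89.2 and 98.7, that of fkh, a forkhead factor required in stem cells, at 72.2 and 95.3, and that of zfh2 at 48.4 and 60.5. For these 4 progenitor genes the TSS thus ranked higher in ECs than in progenitors, but all 4 were regions of similar rank. Their differences, negative in favour of ECs, ran from -9.33 points (esg) to -23.1 (fkh). Shared regions as a whole leaned the same way, with a median difference of -2.76 and a lower quartile of -14.9, beyond which only fkh lay. A TSS that ranked higher in ECs was also found for 4 of the 7 EC markers. The TSSs of Dl, the Notch ligand of stem cells, and of Sox21a, a Sox factor of differentiating enteroblasts, did not rank higher in ECs. The TSS of Dl (3R:19326154-19326678) had a progenitor peak only, at percentile 57.2 with 74 fragments, while an intronic region of the gene was shared at 82.7 and 78.9. The TSS of Sox21a was progenitor only as well, at 18.5 with 176 fragments, beside intronic regions at 50.2 and 60.7 in progenitors and 82.5 and 88.9 in ECs. Sox100B, a Sox factor of progenitors, had a coding region that ranked 20.6 in progenitors and 62.3 in ECs.

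Among EC markers, the TSS of nub, the gene of the POU factor Pdm1, stood at 98.9 with 294 fragments in progenitors and at 97.5 with 132 in ECs. The EC-only regions of nub, 2 in all, were both in coding sequence, and the stronger (2L:12625967-12626522, printed above) stood at 52.8 with 43 fragments. GATAe, the GATA factor of the endoderm, had 5 regions, all shared, with its TSS at 68.3 and 91.5, and mex1, a brush border protein, had its TSS at 32.0 and 58.4. Myo31DF, the brush border myosin also called Myo1A whose driver labelled the sorted ECs, had regions of both directions, which are given with the brush border list. Myo61F, a brush border myosin, had a TSS region shared at 17.4 and 20.5 and an intron at 45.6 and 63.0, beside 3 progenitor-only regions, the highest at another of its TSSs (20.1). Genes of the smooth septate junction of ECs differed among themselves. The TSS of Ssk was shared at 35.2 and 45.8. An intron of mesh, 519 bp from its TSS, was shared at 89.0 and 86.8, while the TSS of mesh was progenitor only at 3.68. Markers of other cells were mixed, and their counts likewise stand without the share over all genes. Of 6 EE markers, 4 had a progenitor peak and 3 an EC peak, AstC had none, and Tk and NPF had weak progenitor-only regions within 3 kb, up to percentile 24.6. Of 4 visceral muscle markers, 2 had a progenitor peak and 3 an EC peak, and Mlc2 had none. All 4 neuronal markers had peaks in both lists, 3 and 2 of 3 haemocyte markers had peaks in progenitors and ECs, and 1 and 2 of 2 tracheal markers. The strongest regions of pros (EE, 95.4 in progenitors and 92.5 in ECs) and Mef2 (muscle, 99.6 and 98.8) stood high in both lists. So did those of trh (trachea, 96.4 and 95.5) and elav (neuron, 78.4 and 91.8). A peak at a gene is not expression of it, and the purity of the sorts was not tested with these values.

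Pathways and gene groups were compared through 21 lists, by the regions within 3 kb of each gene. A region near genes of 2 lists counted in both, and a region within 3 kb of a listed gene could lie at the TSS or in the coding sequence of a neighbour. The lists are read against 20.0% progenitor-only and 25.1% EC-only regions in the whole set, with 7.20% EC only outside coding sequence. The factors of EC identity were mostly shared, at 79.0% of 62 regions, with 9.68% (4.51 to 19.5) progenitor only and 11.3% (5.57 to 21.5) EC only. Hnf4, a nuclear receptor of lipid metabolism, was shared in 9 regions and had a weak progenitor-only region at 18.7 within 3 kb, at the TSS of its neighbour PrBP. The strongest TSS region of ttk, which represses the EE fate, stood at 88.9 with 620 fragments in progenitors and at 97.1 with 325 in ECs, and another of its TSS regions at 49.5 and 85.1. The TSSs of lab (95.8 and 96.2), Ptx1 (95.8 and 98.2), dve (96.3 and 90.0) and Mondo (95.5 and 98.6), regional and metabolic regulators of the midgut, were near the top in both lists.

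Progenitor identity genes had 20.6% (12.5 to 32.2) progenitor-only and 19.0% (11.2 to 30.4) EC-only regions among 63, close to the shares over all regions. hdc, the gene of headcase, which marks progenitors, had 4 progenitor-only regions up to percentile 46.2 and 6 EC-only regions up to 33.0, beside shared introns at 99.5 and 96.5 in 1 region and 95.9 and 99.8 in another. Pvr, a receptor tyrosine kinase of growth factors, had 4 progenitor-only regions up to 20.6, and zfh2 had 3 EC-only regions up to 53.7. At klu, 2 progenitor-only regions stood at 3.0 or lower.

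In the Notch pathway, which sets the absorptive fate, 13.2% (7.31 to 22.6) of 76 regions were progenitor only and 19.7% (12.3 to 30.1) EC only. Beside Dl, the strongest progenitor-only regions lay around Psn, the protease subunit of gamma-secretase, with its own TSS at 35.9 and those of its neighbours CtIP and CG5262 at 46.8 and 24.6. Regions that were EC only outside coding sequence made up 3.95% of the 76, at Ser, a Notch ligand, fng, its glycosyltransferase modifier, and kuz, the protease that cleaves Notch. An intron of kuz ranked 22.0 in progenitors and 70.8 in ECs. The Notch target genes of the Enhancer of split and Bearded groups had 11 regions at 9 of 14 genes and every one was shared, which leaves an upper limit of 25.9% for each 1-library class. A region 1734 bp from the TSS of E(spl)m8-HLH, at the TSS of the co-repressor gene gro, stood at 94.3 in progenitors and 97.9 in ECs, a region between E(spl)m3-HLH and its neighbours at 89.9 and 98.7, and the TSS of E(spl)mbeta-HLH at 61.4 and 90.5. At these 11 regions, no peak was found in a single list.

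The EGF receptor pathway, which drives stem cell division, had 18.8% (12.4 to 27.5) progenitor-only and 8.91% (4.76 to 16.1) EC-only regions among 101. pnt, the ETS activator downstream of the kinase cascade, had 5 progenitor-only regions, none above percentile 23.7. The strongest was at the TSS of Sos, the Ras exchange factor (65.4, 87 fragments), followed by an intron of cic (62.5, 81 fragments, 3R:20282523-20283073, printed above) and by TSSs of neighbours, CG10494 beside Egfr (51.6, 76 fragments) and mRpL14 beside Raf (50.1, 73 fragments). cic, the HMG-box repressor that EGF receptor signalling relieves, went both ways, with 3 progenitor-only introns and 1 intron that ranked 27.0 in progenitors and 80.6 in ECs. The strongest EC-only region of the pathway, 70.6 with 63 fragments, was intergenic at kek1 (2L:12824007-12824454), a feedback inhibitor of the receptor. sty, another feedback inhibitor, had EC-only regions at 51.4 in coding sequence and at 42.2 in an intron. A TSS of Egfr and an intron of the adaptor drk ranked higher in ECs, at 4.9 against 45.6 and 18.5 against 59.0.

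Wingless pathway regions were progenitor only in 25.0% (16.2 to 36.4) of 68 and EC only in 11.8% (6.08 to 21.5), of which a single TSS of sgg, the GSK3 kinase, was outside coding sequence. The strongest progenitor-only regions were the TSS of lgs, the adaptor between beta-catenin and pygo (75.2, 101 fragments, 4:443644-444032), and an intron of nkd, a feedback inhibitor (67.2, 88 fragments). fz2, a Wingless receptor, had 4, up to 52.8, and pygo had its TSS at 46.1. In the JAK-STAT pathway, 16.3% (8.12 to 29.97) of 43 regions were progenitor only and 25.6% (14.9 to 40.2) EC only, and 8 of these 11 lay in the window of Ptp61F. An intron of Ptp61F ranked 43.4 in progenitors and 87.1 in ECs, and Socs36E, a target and inhibitor of the pathway, had 2 EC-only introns of low rank with 90 and 100 fragments. Hippo pathway genes had 32.5% (20.1 to 48.0) EC-only regions among 40, the highest being wts, the kinase that restrains Yki, at 58.8, and all 13 of them were coding. In the BMP pathway, both shares were 14.0% (6.95 to 26.2) of 50. A region near the TSSs of ytr and of gbb, a BMP ligand, ranked 59.3 in progenitors and 8.2 in ECs, and a region 1403 bp from the TSS of brk, a repressor of BMP targets, 29.2 and 69.5. JNK genes had 13.5% (6.68 to 25.3) progenitor-only and 15.4% (8.01 to 27.5) EC-only regions among 52, and a TSS region of egr, the TNF ligand, ranked 19.0 and 60.7.

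Cell cycle genes showed the 2 kinds of region side by side, with 13 progenitor-only and 13 EC-only regions among 67, or 19.4% (11.7 to 30.4) each. Of the progenitor-only regions, 8 were at the TSS of a listed gene or of its neighbour, beside 51.5% TSS-proximal among all progenitor-only regions. At the TSS of the listed gene itself were those of polo, a mitotic kinase (61.5, 80 fragments), Cdk2 (34.8, 51 fragments) and PCNA, the replication clamp (21.6, 48 fragments). The strongest of the others were at the TSS of RpS18 beside PCNA (59.0, 88 fragments) and 372 bp from the TSS of aurB, a mitotic kinase, at Stam (28.6, 46 fragments). The TSS of CycA, a mitotic cyclin, was shared at 97.2 and 95.5. Another region in the CycA window, 372 bp from the TSS of its neighbour CG32095, stood at 53.8 in progenitors and 5.45 in ECs. It was the only region of the list ranked at least 40 points higher in progenitors. Of the 13 EC-only regions, 10 were coding, beside 71.3% among all EC-only regions, and none of the 13 stood above percentile 35.5. The 10 coding regions lay in CycE, Cdk2, the mitotic phosphatase gene stg, polo and Mcm5, and otherwise in neighbours. The 2 EC-only regions of E2f1 were outside coding sequence.

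Genes of EC function held regions of both 1-library classes. The brush border list had 31.6% (19.1 to 47.5) progenitor-only regions among 38 and 15.8% (7.44 to 30.4) EC only. Both intervals include the shares over all regions, 20.0% and 25.1%. The progenitor-only regions were at 7 of 9 genes, beside 31.0% of all protein-coding genes. For Act5C and Cad99C they lay only at the TSS of a neighbour. The TSS of Myo31DF (2L:10506647-10507135) had a progenitor peak only, at percentile 67.4 with 173 fragments, while an intron of the same gene ranked 39.6 in progenitors and 85.3 in ECs. Progenitor-only TSSs were also at Moe, the actin-membrane linker moesin (50.96, 94 fragments), Cad87A, a cadherin of microvilli (49.8, 65 fragments), and kst, a heavy spectrin of the apical membrane (41.3, 57 fragments), which had 4 progenitor-only regions in all. The strongest EC-only regions of this list were in coding sequence of cher, the actin crosslinker filamin, at 52.4 and 39.5.

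Digestive enzyme genes had few regions, 30 at 32 of 43 genes, and the fewest in common: 26.7% (14.2 to 44.4) were progenitor only, 43.3% (27.4 to 60.8) EC only and the other 9 shared. None of the 1-library regions was strong, whereas a shared region near Jon65Aiv stood at 92.2 in progenitors and 89.8 in ECs. Of the 30 regions, 3 were EC only outside coding sequence. The highest EC-only regions were in coding sequence of a neighbour of Jon44E (48.9, 41 fragments), at the TSS of the lysozyme gene LysP (46.9, 40 fragments) and at Jon65Aiv (45.9, 44 fragments), the Jonah genes being serine proteases of the gut. The trypsin cluster around alphaTry had EC-only regions at 24.2 and 28.7, each with fewer than 35 fragments. The highest progenitor-only region, at the TSS of tant within 3 kb of Jon65Ai and Jon65Aii, stood at 37.0 with 53 fragments. Members of these families are near-identical and clustered, multimapped reads had been removed, and a region within 3 kb can belong to several of them.

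Junction and adhesion genes had 14.3% (8.70 to 22.6) progenitor-only and 19.4% (12.8 to 28.3) EC-only regions among 98. The TSS of Tsp2A, a tetraspanin of the smooth septate junction, was progenitor only at 48.1 with 98 fragments. The TSS of l(2)gl, a polarity protein, ranked 14.3 in progenitors and 61.8 in ECs, and an intron of mys, the beta integrin, 29.5 and 70.0. For lipid and nutrient uptake the shares were 16.1% (8.69 to 27.8) and 12.5% (6.19 to 23.6) of 56. Glut1, a glucose transporter, had 2 EC-only coding regions at 62.3 and 49.3. A region in Lpin, the phosphatidate phosphatase lipin, at the TSS of kermit ranked 25.1 in progenitors and 65.5 in ECs. A TSS of Lpin itself, at 26.3 and 64.9, fell short of the limit of 40 points. bmm, the triglyceride lipase, had 4 regions, all shared and of similar rank by the 40-point limit. Each stood at a higher percentile in ECs, from 45.2 against 61.8 to 30.7 against 68.2.

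In the Imd pathway of gut immunity, both shares were 13.9% (6.08 to 28.7) of 36. A coding region of PGRP-SC2, within 3 kb of PGRP-SC1b, both amidases that degrade bacterial peptidoglycan, ranked 18.1 in progenitors and 63.4 in ECs. Ecdysone and nuclear receptor genes had 11.0% (6.86 to 17.1) progenitor-only and 14.4% (9.60 to 21.0) EC-only regions among 146. An intron of Eip75B, a haem-binding nuclear receptor induced by ecdysone, was progenitor only at 82.5 with 115 fragments. Introns of Eip93F (24.1 against 66.0) and EcR, the ecdysone receptor (12.8 against 58.0), ranked higher in ECs. Neuronal genes had 43.5% (25.6 to 63.2) progenitor-only regions of 23, led by a region near the TSSs of Dyrk3 and of Cadps, a factor of vesicle release (79.2, 108 fragments), and an intron of Syn, synapsin (70.0, 164 fragments). EE genes had 32.3% (18.6 to 49.9) of 31 in each class, the highest being an EC-only coding region of mirr at 55.9. Visceral muscle genes had 18 EC-only regions of 36 (95% interval 34.5% to 65.5%), with 8.33% of the 36 EC only outside coding sequence, and sls, the titin of flies, alone had 7. Genes of haemocytes and trachea had 37.5% (18.5 to 61.4) EC-only regions of 16. The part of other cells in the sorts was not tested.

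**Figure D4:**
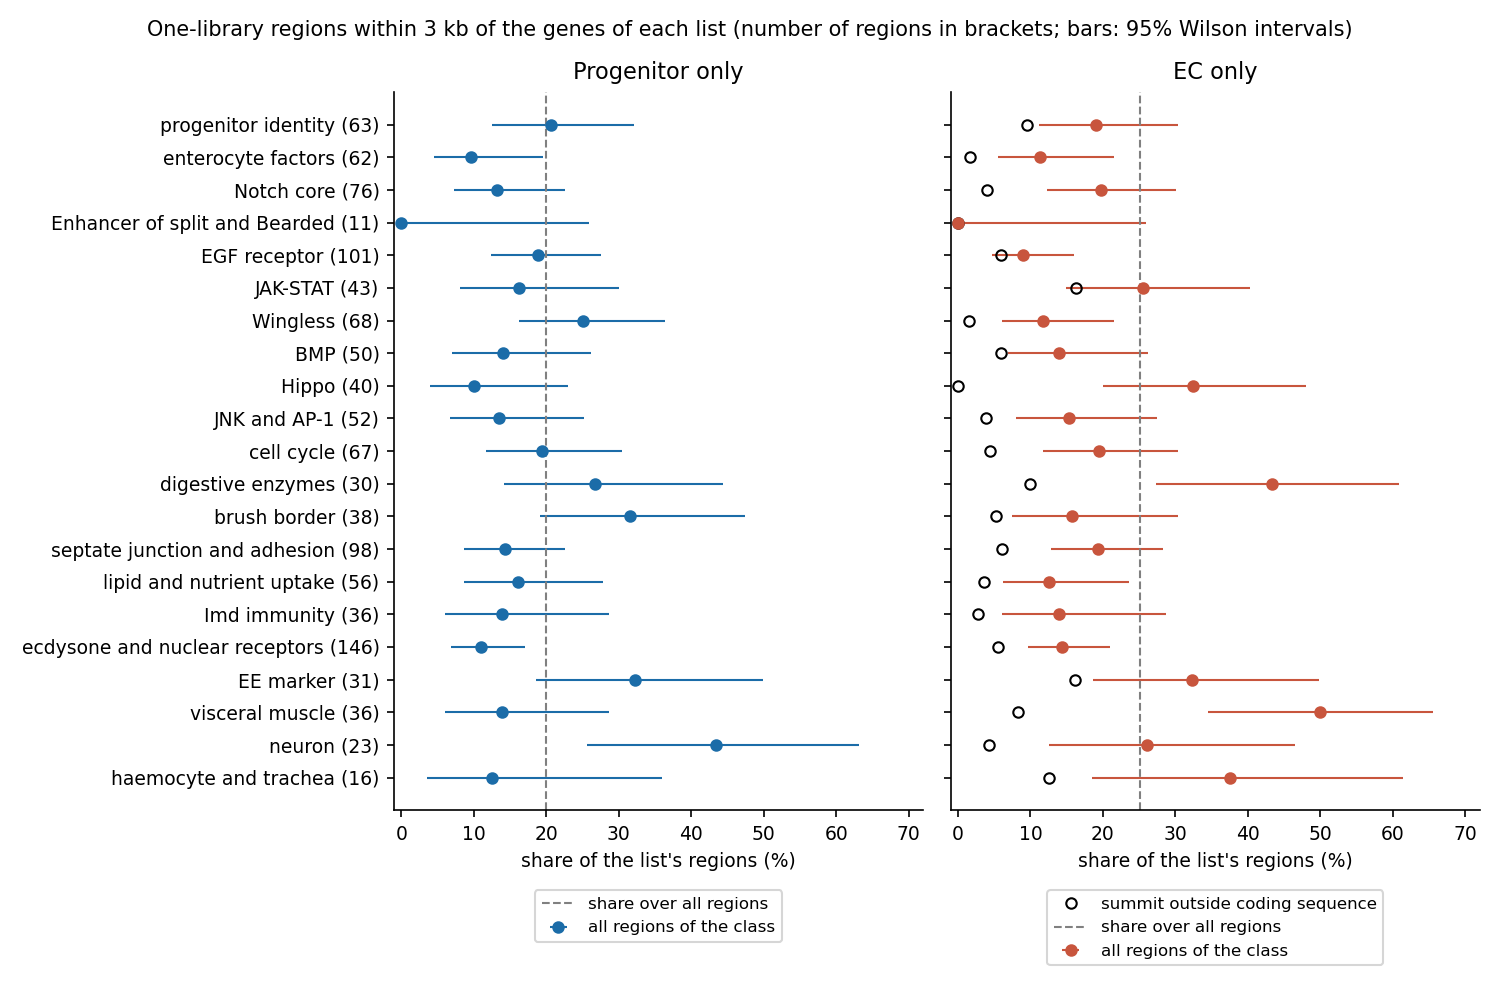
Share of the regions within 3 kb of the genes of each list (y axis, number of regions in brackets) that were progenitor only (left) or EC only (right), in % (x axis), with 95% Wilson intervals as bars, the share over all regions as a dashed line and, on the right, the share that was EC only with the summit outside coding sequence as open circles. Most intervals include the dashed lines at 20.0% and 25.1%, and the open circles run from 0% (Hippo, and Enhancer of split and Bearded) to 16.3% (JAK-STAT).

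The sequence around the summits differed between the classes. Matches to 15 short motifs were counted on either strand within 100 bp of each summit: GATA factors (GATAAG), AP-1 (TGANTCA), POU octamer (ATGCAAAT), Snail family E-box (CAGGTG), Stat92E (TTCNNNGAA), Su(H) (GTGGGAA), Trl (GAGAGAG), DREF (TATCGATA), Sox (ACAATG), forkhead (TGTTTAC), Caudal (TTTATG), Hnf4 (CAAAGTCCA), Ttk (AGGATAA), Scalloped (CATTCC) and Myc E-box (CACGTG). The GATA motif can overlap those of Ttk and DREF. A match is a description of the sequence and not a bound site. DREF, known for promoters of replication and growth genes, had its motif in 3.71% of all windows. Near TSSs, it was in 11.3% (9.70 to 13.2) of progenitor-only regions, in 16.4% (9.16 to 27.6) of those ranked higher in progenitors, in 7.30% (6.49 to 8.20) of those of similar rank and in 2.43% (1.28 to 4.55) of EC-only regions.

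GATA factors act throughout the endoderm, and their motif was in 16.3% of all windows. Outside exons and promoters it was as frequent in progenitor-only regions, at 25.3% (22.8 to 28.0), as in regions of similar rank, at 25.2% (23.6 to 26.8), and those ranked higher in ECs had 25.0% (16.8 to 35.5). EC-only regions of the same places had 10.8% (8.72 to 13.2). The motif of Trl, the GAGA factor found at many open promoters, was in 7.85% of all windows. It was in 11.5% (10.7 to 12.3) of regions of similar rank and in 9.09% (5.28 to 15.2) of those higher in ECs, but in 5.59% (4.75 to 6.57) of progenitor-only and 2.07% (1.62 to 2.63) of EC-only regions. The AP-1 motif, of the factors that JNK activates, was in 5.74% of all windows and 13.8% (7.85 to 23.0) of intronic and intergenic regions ranked higher in ECs, with 9.46% (8.42 to 10.6) in similar regions and 5.64% (4.41 to 7.20) in progenitor-only ones. The Snail family E-box, which Esg can bind, was in 9.29% of all windows, in 17.3% (16.0 to 18.7) of EC-only regions and in 6.20% (5.32 to 7.22) of progenitor-only regions. In exons alone it was in 19.9% (18.3 to 21.8) of EC-only regions and 9.92% (6.81 to 14.2) of regions of similar rank. GC content moved with these shares, from 42.3% in progenitor-only to 56.2% in EC-only regions, and its part in them was not tested.

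**Figure D5:**
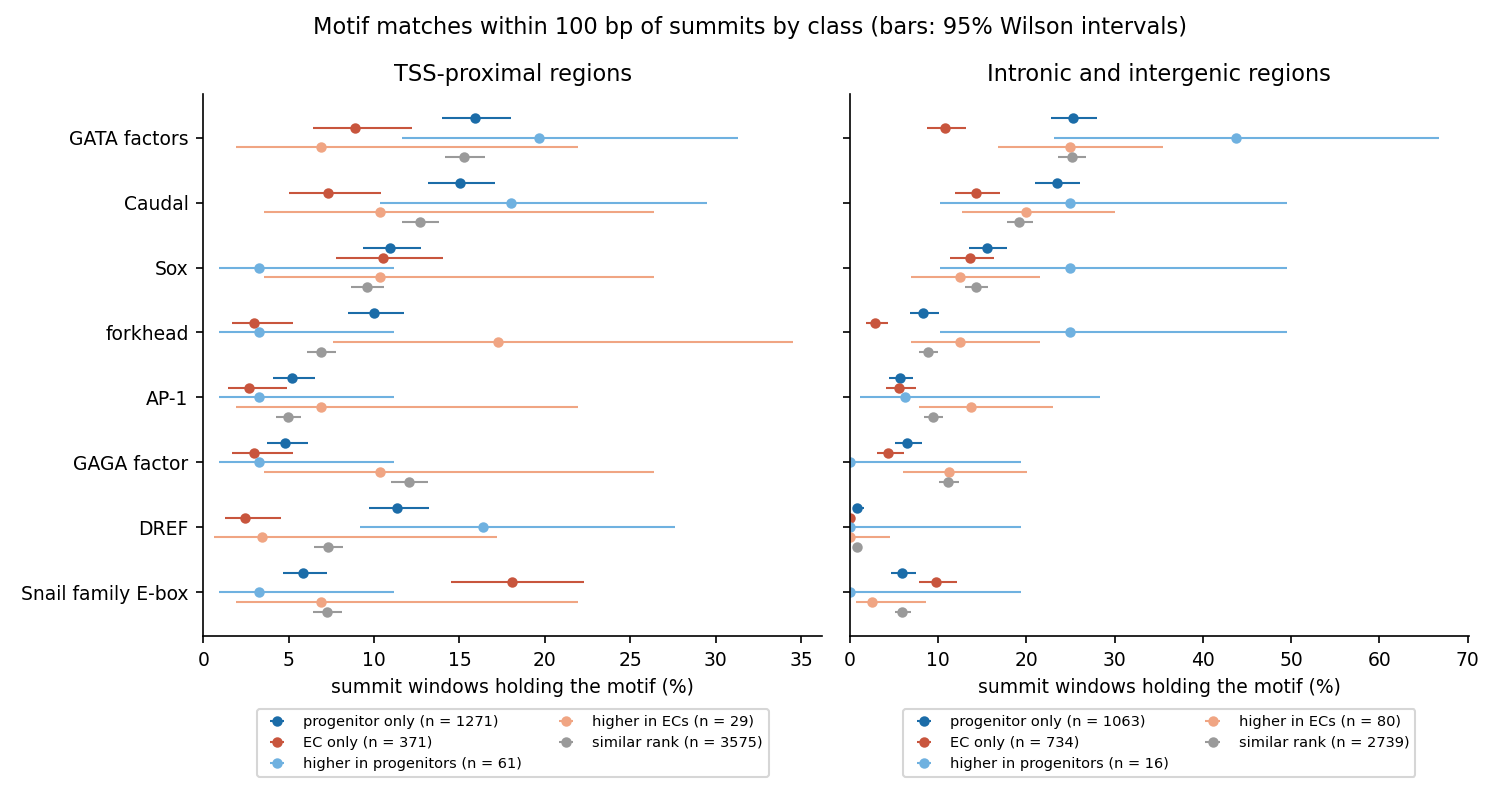
Share of windows, 100 bp to each side of the summit, with a match to each of 8 motifs (x axis, %; motifs on the y axis) in TSS-proximal (left) and in intronic and intergenic regions (right), by class, with 95% Wilson intervals as bars. The DREF motif near TSSs runs from 2.43% in EC-only to 16.4% in regions higher in progenitors, and the GATA motif of EC-only distal regions, at 10.8%, lies apart from the 25.2% of regions of similar rank.

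Among the strongest 4500 peaks of each list, where coding peaks are few, part of these differences was seen as well. Most regions of these 1-library classes had a weaker peak in the other full list, so they are not the classes of the full lists. The shares here pool all positions, whose mix differs between the classes. Pooled in this way, the DREF motif was in 6.24% of progenitor-only and 0.323% of EC-only regions of the full lists. Among the strongest peaks it was in 8.04% (6.41 to 10.03) of progenitor-only and 1.67% (0.997 to 2.78) of EC-only regions. The GAGA motif went the other way, with 5.28% (3.98 to 6.97) and 13.9% (11.8 to 16.5), as did the AP-1 motif with 4.82% (3.59 to 6.45) and 10.3% (8.38 to 12.5). The GATA motif, at 22.5% (19.9 to 25.4) and 19.5% (17.0 to 22.4), and the Snail family E-box, at 6.31% (4.88 to 8.13) and 6.44% (4.97 to 8.30), had overlapping intervals there. Between the full and the cut lists, whose 1-library classes hold different regions, the AP-1 and GAGA shares thus changed order. The DREF share was higher on the progenitor side in both cases.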

How the data were processed

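The deposited files are MACS3 narrowPeak lists, 1 per library. Per the labels and the study's methods, the authors trimmed reads with Cutadapt, aligned them with Bowtie2 to release 6 of the Drosophila genome, and removed duplicates with Picard, multimapped reads with SAMtools and reads in blacklisted regions with bedtools before calling peaks per sample. The labels name Bowtie2 2.2.4, which differs from the version in the methods, and the MACS3 settings are not given in the sources used here. The deposited columns used were the fold enrichment over background, the -log10 p and the -log10 q of each peak, where the q-value is the p-value adjusted by the authors' caller. No other deposited values and no reads were used here.

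Intervals of the progenitor and EC lists on the 6 arms were merged where they overlapped or touched. A region took the strongest peak of each list, its percentile was the average rank of the fold divided by the number of peaks in that list, and its summit came from the list with the higher percentile. Regions that differed by at least 40 points were called as ranked higher in 1 population. Fragments at the summit were derived from the fold and the -log10 p under a Poisson model with the caller's pseudocount of 1, and 100% of peaks could be solved. Genes were those of Ensembl release 115, and a summit within 500 bp of the TSS of any protein-coding gene counted as TSS-proximal before exons and introns were considered. LysC could not be matched. The merging and counting were tested on simulated peak lists. The tools were matplotlib 3.10.9, SciPy 1.17.1, pandas 2.3.3 and numpy 2.4.6 under Python 3.11.15.

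Named by rule were the marker genes, the nearest genes of the 10 strongest or most different regions of each class, the 5 genes with the most regions of each 1-library class, and up to 3 members per direction in each gene list. Other genes were named after their values were seen. The members and lists were chosen with earlier results of these data known. The alternatives were stricter q thresholds, equal numbers of peaks, merging within 250 bp, fixed windows around summits, ranks of -log10 p, other rank and TSS limits, all sequences, and, for motifs and gene lists, narrower windows.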

Additional observations from a re-analysis of the deposited data

Results flagged for a closer look

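Peaks outside the 6 arms took no part in the comparison. The progenitor list held 29 such peaks and the EC list 108. Of the EC peaks, 7 were on the Y chromosome, where the progenitor list had 0, although the flies of the study were female. The rest of both lists were on unplaced or randomly assigned scaffolds. Neither list held a mitochondrial peak. The median fold of these peaks was 4.02 in progenitors and 3.33 in ECs, and their source was not tested.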

How the results depend on the processing

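No paired analysis was possible because each population had 1 library, and no replicate could be left out. Requiring a -log10 q of at least 5 left 550 EC-only regions, 62.6% of regions in both lists, 398 and 15 regions ranked higher in progenitors and in ECs, and 55.6% of progenitor-only regions near a TSS. At a -log10 q of at least 10 these values were 75, 57.4%, 555, 9 and 58.2%, and 14.7% of EC-only regions were near a TSS. With the strongest 4500 peaks of each list there were 871 progenitor-only and 839 EC-only regions, 67.9% in both, 220 and 226 ranked higher in progenitors and in ECs, and TSS-proximal shares of 65.6% and 34.8%. Merging within 250 bp gave 55.9% in both. Windows of 250 bp around summits gave 47.6% in both and 19.7% of EC-only regions near a TSS. Ranks of -log10 p gave 22 and 77 regions ranked higher in progenitors and in ECs, a limit of 30 points gave 222 and 453, and a limit of 50 points gave 27 and 22. A TSS window of 1000 bp gave 56.8% and 27.4% for progenitor-only and EC-only regions. Without coding regions, a setting chosen after seeing the data, 888 EC-only regions remained, 66.5% of regions were in both lists and 14.5% of EC-only regions were near a TSS. The TSS-proximal share was higher in progenitor-only than in EC-only regions under each of these settings. The order of the 1-library counts and of the rank classes was not stable: EC-only regions outnumbered progenitor-only ones in the full lists but not at the stricter q thresholds, with equal numbers of peaks or without coding regions. Under the q thresholds and with equal numbers, a 1-library region lacked a peak above the cut in the other list. The other full list could hold a weaker peak there. At a -log10 q of at least 10 there were 3213 progenitor-only regions. Of the progenitor-only regions of the full lists, 1316 reached that value. Of 42 shares of gene lists, 33 moved by more than their interval at a -log10 q of at least 10 and 11 with a window of 3 kb around TSSs. Motif shares fell with 51 bp to each side of the summit, and 14 of 15 motifs kept their direction between the 1-library classes, the exception being Hnf4. The causes of these shifts were not tested, apart from fewer regions entering the stricter settings.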
